A study of Mus musculus with 4 samples.

Results

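The GIMAP genes (GTPases of immunity-associated proteins) were followed through a pair of marker tables made from single-cell RNA sequencing (scRNA-seq) of sorted liver and lung immune cells. The family was taken by name: *Gimap1*, *Gimap3*, *Gimap4*, *Gimap5*, *Gimap6*, *Gimap7*, *Gimap8* and *Gimap9*. A row of a table, called a listing here, names 1 gene and 1 cluster of cells in which the authors' comparison placed its average above that of the rest. Of the 8 genes, 4 had at least 1 listing, among 3488 genes listed in either table. They had 25 listings in all, 13 in the table of 21 cell types and 12 in the table of 10 subclusters of group 2 innate lymphoid cells (ILC2s).

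GIMAP proteins are GTP-binding proteins of lymphocytes, anchored to or recruited to internal membranes, where they act on the survival of T cells and related cells. They share a GTP-binding domain of the AIG1 type, whose phosphate-binding loop (P-loop) holds the nucleotide. GIMAP5 sits on lysosomes and its loss depletes peripheral T cells in mice and rats. GIMAP1 is needed for mature lymphocytes, GIMAP6 binds ATG8 proteins of the autophagy pathway, GIMAP7 hydrolyses GTP after pairing of its GTP-binding domains, and GIMAP4 has been tied to the timing of T cell death.

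The cells came from 8-week-old wild type BALB/c mice that received daily intraperitoneal injections for 5 days of either PBS, the control, or recombinant IL-33 (rIL-33, 0.5 µg), an alarmin cytokine that activates ILC2s. ILC2s are lymphocytes without antigen receptors that make type 2 cytokines such as IL-13. Lineage-negative cells carrying CD127, Thy1 and the IL-33 receptor ST2 were sorted from liver or lung, and the lineage cocktail held CD3e and TCRb as well as myeloid, B cell and erythroid markers. There were 4 groups (PBS liver, PBS lung, rIL-33 liver and rIL-33 lung) of 1 library each.

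Both tables pooled the cells of all 4 libraries and held no value per library. Liver and lung, or PBS and rIL-33, were therefore not compared, no value has a replicate, and no test was run. Each listing gives a pair of shares to 3 decimals, one for cells of the cluster and one for the rest. A cell counts if the gene's value in it exceeds 0. The only error given here for a printed share is its rounding of 0.05 percentage points. Counting error, which is larger in smaller clusters, was not computed. Depth and cell numbers were not analysed here. The clusters were made by the authors from the expression values of these same cells, so a difference between a cluster and the rest is given as a description. A gene without a listing may have been lower, equal, higher by too little to be listed, rare or not tested in that cluster. These cases cannot be told apart.

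The 8 genes lie side by side on mouse chromosome 6 (GRCm38, GENCODE M21), in a stretch of 123.6 kb from 48647234 to 48770851. Their order was *Gimap8*, *Gimap9*, *Gimap4*, *Gimap6*, *Gimap7*, *Gimap1*, *Gimap5* and *Gimap3*, with *Gimap6* and *Gimap3* on the minus strand and the others on the plus strand. *Gimap4* (ENSMUSG00000054435.16) spans 48684549 to 48692060, and *Gimap7* (ENSMUSG00000043931.10) spans 48718621 to 48724636. *Gimap3* (ENSMUSG00000039264.9) spans 48764464 to 48770851, and *Gimap9* (ENSMUSG00000051124.6) spans 48676129 to 48679114. Listings were not spread along the stretch: *Gimap4* had 13 and *Gimap7* had 10, while *Gimap6*, which lies between them, had 0.

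**Figure D1:**
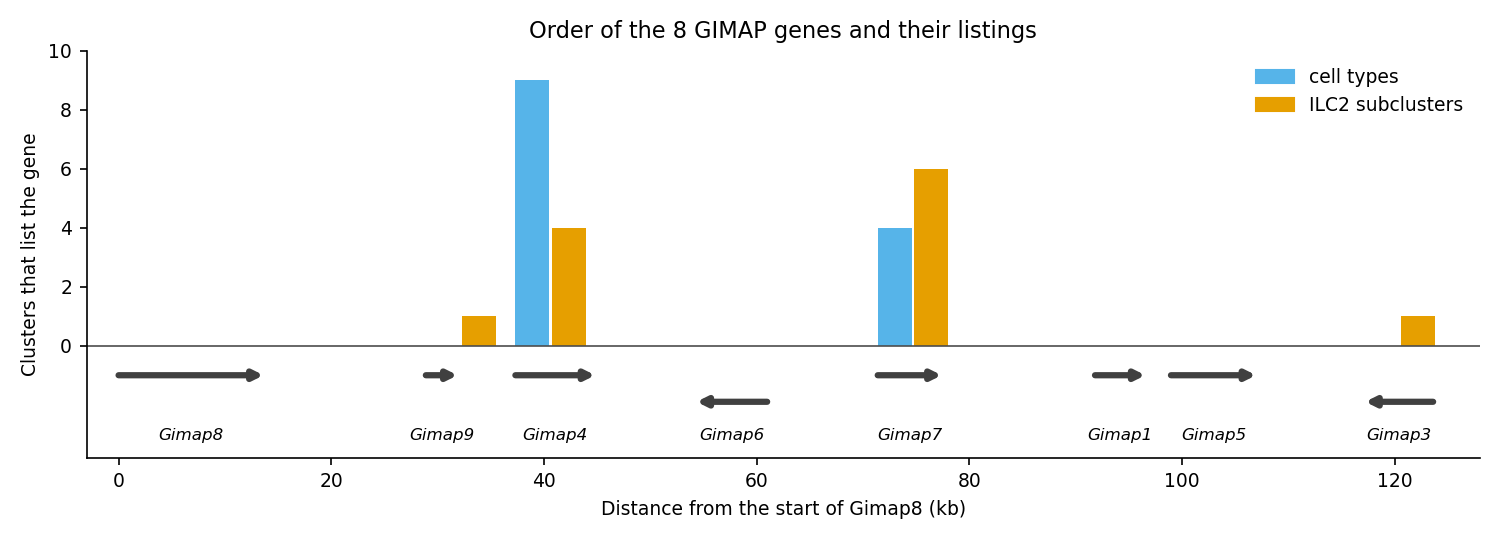
Map of the 8 GIMAP genes by distance in kb from the start of Gimap8 (x axis), with arrows for the direction of transcription. Bars give the number of clusters that list each gene (y axis), blue for cell types and orange for ILC2 subclusters. Gimap4 (9 and 4) and Gimap7 (4 and 6) carry 23 of the 25 listings.

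All 8 genes encode the P-loop pattern, a glycine, 4 residues of any kind, then glycine, lysine and serine or threonine. It was found 3 times in the coding sequence of *Gimap8* and once in each of the others. The coding bases of the loop are shown for the 4 listed genes and for *Gimap5*, because they show how far the family members can be told apart by sequence. Capitals mark the codons of the fixed residues, and the strand is the coding one (GENCODE M21):
*Gimap3*: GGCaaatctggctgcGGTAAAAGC
*Gimap4*: GGAaaaactggagcaGGAAAGAGT
*Gimap7*: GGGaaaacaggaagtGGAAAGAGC
*Gimap9*: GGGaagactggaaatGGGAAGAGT
*Gimap5*: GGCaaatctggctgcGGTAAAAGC

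*Gimap3* and *Gimap5* had the same 24 bases there, whereas *Gimap4* and *Gimap7* differed at 6 of the 24. Over the whole coding sequence, 90.7% of 895 aligned bases were identical between *Gimap3* and *Gimap5*, and their transcripts shared a run of 140 identical bases. *Gimap4* and *Gimap7* were identical at 65.3% of 828 aligned bases, with no shared run longer than 11 bases. A read inside the shared run of *Gimap3* and *Gimap5* cannot be assigned to either gene, so the values of *Gimap3* may be less certain than those of *Gimap4*. Whether the run lies near the transcript 3' ends, which were sequenced, was not examined. A read-through gene, Gm28053 (chromosome 6, 48718607 to 48752644, plus strand), covers 81 of the 2325 exonic bases of *Gimap7* (3.48%), 198 of 3073 of *Gimap1* and 153 of 4149 of *Gimap5*, and shares none with *Gimap3*, *Gimap4* or *Gimap9*. How the counting treated reads in these bases is not given in the sources used here.

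Among the cell types, *Gimap4* and *Gimap7* were listed and the other 6 GIMAP genes were not. *Gimap4* was listed for 9 of 21 types and *Gimap7* for 4, and all 4 types that listed *Gimap7* (gdT_TypeI, ILC1, CD8_Effector and NK) also listed *Gimap4*. The 9 types are labelled as T cells, NK cells, group 1 innate lymphoid cells (ILC1s) or the mixed ILC1_ILC3. Neither gene was listed for ILC2, ILC2_2, ILC3, gdT_TypeII or the 2 gdT_TypeIII types, nor for Macrophage, Basophil, Endothelium cell, Plasma cell, MMP_LMPP or Prolifelation cell. As background, 12.5% of all 35259 pairs of a listed gene and a cell type were listings.

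A share in the cell type table was not read as the share of cells in which a transcript was detected. The sort gate excluded CD3e on the cell surface, yet *Cd3e*, the T cell receptor subunit, was above 0 in 83.5% of all cells of that table, against 5.76% of the ILC2s of the subcluster table. In the study, cells with markers of other cells, *Cd3* among them, were left out before ILC2s were subclustered. The low *Cd3e* share there was therefore partly set by that choice. *Gimap4* showed a gap as well. In the cell type table its share in ILC2 and ILC2_2 together lay between 63.6% and 100% by the cluster sizes fitted below. In the subcluster table it was 36.8% of all ILC2s. The kind of value behind the shares of either table is not given in the sources used here. Shares of cell types below therefore count cells with a value above 0, whatever that value is, and they were compared only within that table.

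*Gimap7* separated gdT_TypeI most. Of gdT_TypeI cells, 84.9% had *Gimap7*, against 56.2% of all other cells, and this difference of 28.7 percentage points was the highest of the 145 genes listed for that type. In ILC1 the share was 80.6% against 58.5% outside. In CD8_Effector it was 71.9% against 59.5%. NK cells were closest to the rest, with 64.8% against 59.4%, and this difference ranked 138 of 197 listings there. All 4 shares inside were above the share outside.

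*Gimap4* was above 0 in over 80% of cells in each type that listed it. Its highest shares were 97.9% in gdT_TypeI, against 78.8% outside, and 97.4% in ILC1, against 80.2%. NK cells had 95.5% against 80.5%, and CD8_Effector had 93.6% against 81.0%. Naive CD8 T cells (CD8_Naive) had 92.5% against 80.8%, and the mixed type ILC1_ILC3 had 91.8% against 81.0%. The remaining types lay near the outside level. The gdT_Naive cells had 86.5% against 80.7%, CD4 cells had 84.6% against 81.0%, and in Treg the share of 80.8% was below the 81.1% outside, although the gene was listed there. The odds that a gdT_TypeI cell had *Gimap4* were 12.5 times those of all other cells, and for CD4 cells they were 1.29 times.

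**Figure D2:**
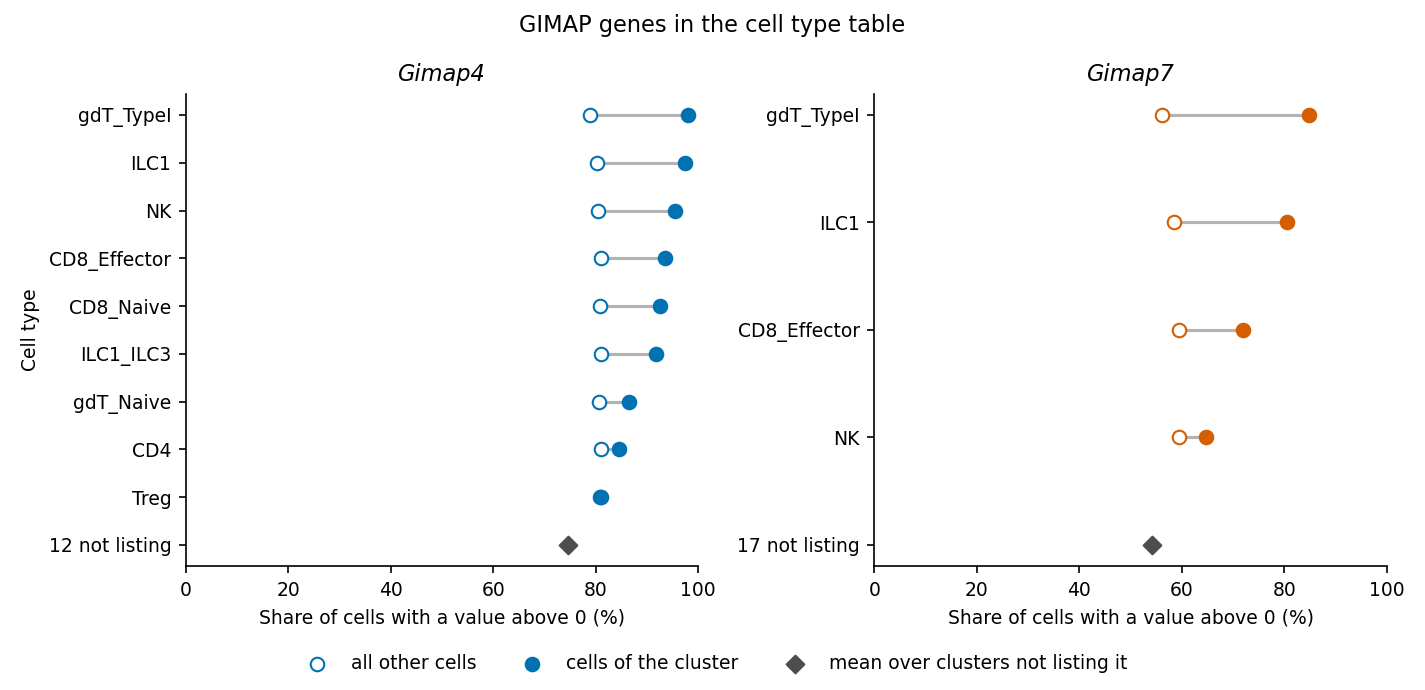
Share of cells (x axis, %) with Gimap4 (left) and Gimap7 (right) in each cell type that listed the gene (y axis, ordered by share). Filled circles are cells of the type, open circles all other cells, and the diamond the mean over types that did not list the gene; there are no error bars because the tables pool the 4 libraries. Both genes are highest in gdT_TypeI and ILC1, and Gimap4 in Treg (80.8%) lies on the outside value.

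The listings also fix the mean share of each gene over all types without a listing, weighted by their size. The share of a gene over all cells is the average of its shares inside and outside a cluster, weighted by the cluster's size, and it must come out the same for every cluster that lists the gene. A least squares fit over genes with at least 2 listings gave the size of each cluster under this condition. Over all cells, 81.1% had *Gimap4* and 59.6% had *Gimap7*, and the 9 and 4 listings of these genes gave values within 81.03% to 81.12% and 59.56% to 59.60%. The 9 types that listed *Gimap4* held 35.5% of all cells and the 12 others had a mean share of 74.6%. The 4 types that listed *Gimap7* held 20.9% of all cells and the 17 others had a mean share of 54.2%. Rounding moves these means by at most 0.105 and 0.0764 percentage points. The means do not fix single types. In ILC2 and ILC2_2 together, the share of *Gimap7* could lie anywhere between 19.5% and 95.3%.

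The pairs of shares set a lower limit for cells in which the values of both genes exceed 0. It was 82.8% of gdT_TypeI cells, 78.0% of ILC1, 65.5% of CD8_Effector and 60.3% of NK cells, on the scale of the cell type table and with the limit on reading it as detection. *Gimap4* had the higher share in each, by 13.0 percentage points in gdT_TypeI and by 30.7 in NK.

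The background of each type shows how selective its listings were. CD8_Effector listed 5.60% of the 1679 genes in the table, ILC1 8.64%, NK 11.7% and gdT_TypeI 8.64%, and each listed 2 of the 8 GIMAP genes. CD4 listed 7.80%, CD8_Naive 11.8%, ILC1_ILC3 13.4%, Treg 8.93% and gdT_Naive 8.87%, with *Gimap4* alone of the family. The median difference over all genes listed for a type was 5.50 percentage points in gdT_TypeI, 10.9 in ILC1, 10.5 in NK and -3.85 in CD8_Effector. *Gimap7* lay above that median in 3 of its 4 types and below it in NK. *Gimap4* lay above it in 8 of its 9 types, and below it in ILC1_ILC3, where the median was 20.3 percentage points.

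**Figure D3:**
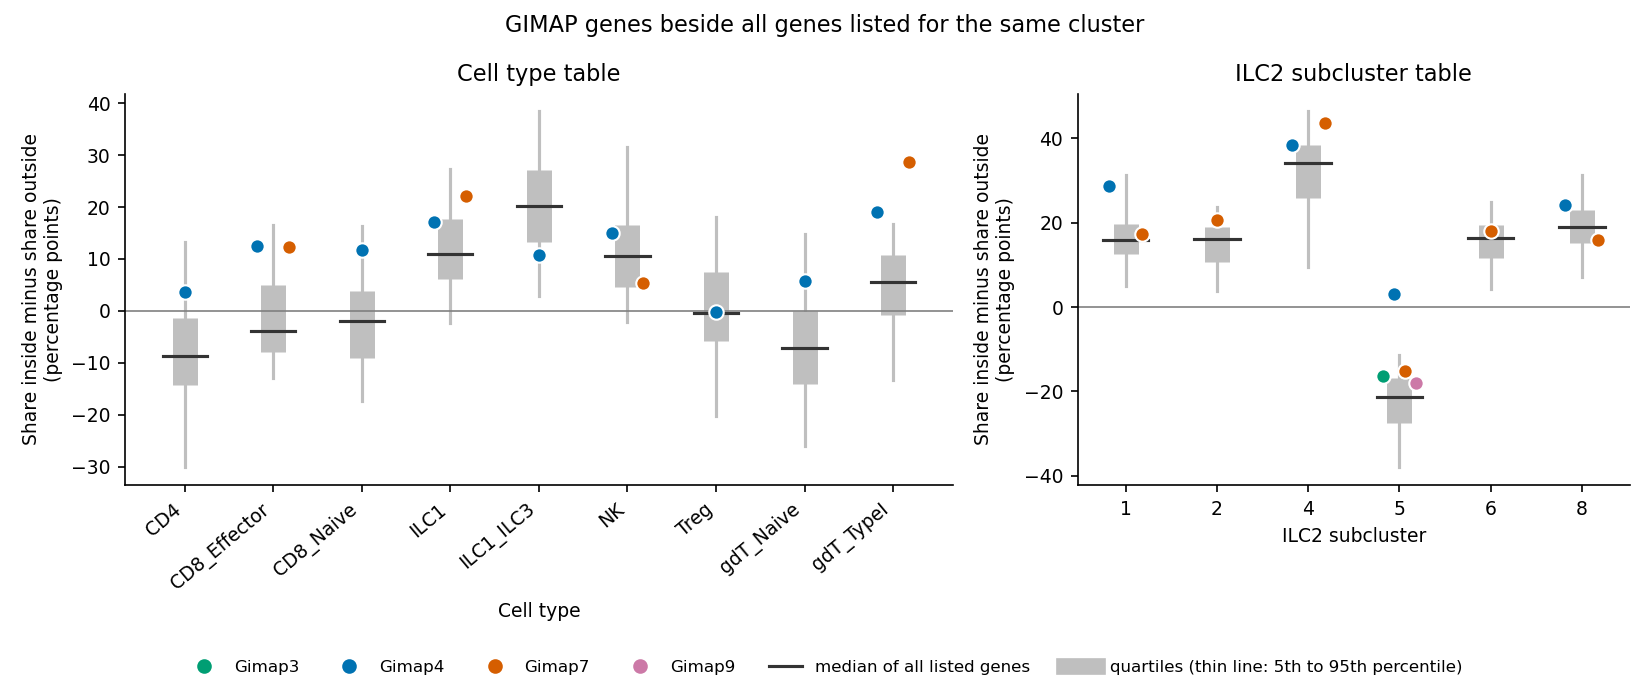
Share inside minus share outside (y axis, percentage points) for each GIMAP listing (coloured points) in its cell type (left) or ILC2 subcluster (right), over the spread of all genes listed for the same cluster (black line, median; grey box, quartiles; thin line, 5th to 95th percentile). Gimap7 in gdT_TypeI (28.7) lies above the 95th percentile of that type, and in subcluster 5, where the median is -21.3, Gimap4 alone lies above 0.

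The type labels were checked against marker lists. NK listed 10 of 10 NK cell and ILC1 markers and ILC1 listed 8 of 10, led by *Nkg7*, a granule protein of cytotoxic cells, in 99.6% of ILC1 cells against 77.7% outside. Of 15 T cell markers, gdT_TypeI and gdT_Naive listed 11 each, CD8_Naive and CD8_Effector 9 each, and CD4 and Treg 8 each. Some of these had a lower share inside, 3 in gdT_Naive, 2 each in gdT_TypeI and CD8_Effector, and 1 each in CD4, CD8_Naive and Treg, as had 1 of the 10 NK cell and ILC1 markers in NK. CD8_Effector and gdT_TypeI, which both listed *Gimap7*, also listed 6 of the 10 NK cell and ILC1 markers each, of which 1 and 2, respectively, had a lower share inside. T cell markers were also listed for types without a GIMAP gene, 8 for gdT_TypeIII_ITGAE and 7 each for gdT_TypeIII_CD163l1 and ILC3, 2 of those in ILC3 with a lower share inside. The type labelled gdT_TypeII listed 0 T cell markers and 5 of 12 ILC2 markers. The ILC2 type listed 11 of 12 ILC2 markers, with 8.10% of all genes listed, and no GIMAP gene.

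Genes listed for nearly the same types as *Gimap4* and *Gimap7* were named by the Jaccard index, the number of clusters listing both genes divided by the number listing either. For *Gimap4* over the 21 types, *Ms4a4b*, a membrane protein of T and NK cells, had the highest index, 0.889, with 8 of its 8 types shared. *Cd2*, an adhesion receptor, followed at 0.80 and *Txk*, a Tec-family kinase, at 0.778. For *Gimap7*, 6 genes were listed for exactly the same 4 types. The closest in share difference were the chemokine *Ccl5* and the NK receptor genes *Klrc2* and *Klrc1*. *Ccl5* was above 0 in 96.5% to 99.6% of cells of these types. In CD8_Effector both receptor genes went another way from *Gimap7*, with *Klrc1* in 51.2% of cells inside against 62.4% outside and *Klrc2* in 60.1% against 66.6%.

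Within ILC2s, 4 GIMAP genes were listed. *Gimap7* was listed for 6 of 10 subclusters (1, 2, 4, 5, 6 and 8) and *Gimap4* for 4 (1, 4, 5 and 8), all of which also listed *Gimap7*. *Gimap3* and *Gimap9* were listed for subcluster 5, and no GIMAP gene was listed for subclusters 0, 3, 7 and 9. As background, 14.2% of all 26290 pairs of a listed gene and a subcluster were listings. The order of nesting was the reverse of that among cell types, where *Gimap4* had the wider set.

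*Gimap7* was most frequent in subcluster 4, where 78.9% of cells had it against 35.2% of the other ILC2s. Its shares in subclusters 6 and 2 were 56.6% and 56.1%, against 38.5% and 35.4% outside. Subclusters 8 and 1 had 55.1% and 53.0%, against 39.1% and 35.7%. These 5 subclusters lay 16.0 to 43.7 percentage points above the other ILC2s. They are also the ones that the study described as enriched for ILC2s of rIL-33 liver. No value per library was available, so the part of that library in these shares was not tested. In subcluster 5 the share was 24.6% against 39.8%, which is lower by 15.2 percentage points. Subclusters 6, 2, 8 and 1 lay close together, and no spread between libraries is known against which to order them.

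*Gimap7* was rare in the rest of the ILC2s. Over all ILC2s its share was 39.2%, and the 4 subclusters that did not list it had a mean of 17.2%, which rounding moves by at most 0.177 percentage points. Subclusters 0 and 3 together held 42.3% of all ILC2s. By the fitted sizes, between 13.5% and 17.9% of their cells had *Gimap7*, before any allowance for rounding or for error in the sizes. *Gata3* and *Il1rl1*, the ILC2 transcription factor and the ST2 receptor, were each listed for exactly these subclusters and shared none with *Gimap7*. They were singled out after their values were seen, and most cells had them in any case, *Gata3* 93.6% in subcluster 0 against 89.9% outside. Of the 5 subclusters that listed *Il13*, the cytokine gene, 4 listed *Gimap7* (80.0% of those for *Il13* and 66.7% of those for *Gimap7*), and subcluster 7 listed *Il13* without it. The 6 subclusters that listed *Gimap7* hold 73.1% of the listings of all genes, so the share for *Il13* is near the background.

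*Gimap4* followed *Gimap7* in part. It was above 0 in 71.6% of subcluster 4 cells against 33.3% outside, in 60.7% of subcluster 8 against 36.6%, and in 59.8% of subcluster 1 against 31.0%. In subcluster 5 it was nearly level, with 39.9% against 36.7%. Over all ILC2s 36.8% had *Gimap4*, and the 6 subclusters without a listing, which included 2 and 6, had a mean of 24.6%. For subclusters 0 and 3 together, the share of *Gimap4* could lie anywhere between 0% and 38.4%. *Gimap7* was the more common gene in subcluster 4, by 7.3 percentage points, and *Gimap4* in subclusters 1, 8 and 5. In subcluster 4 at least 50.5% of cells must have had both genes, while in subcluster 5 the shares require no overlap.

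*Gimap3* was the most frequent of the 4 in ILC2s, in 81.1% of all cells, and *Gimap9* was in 43.0%, just above *Gimap7* and *Gimap4*. A high share did not go with many listings: *Gimap3* was listed for 1 subcluster, where 65.3% of cells had it against 81.7% of the other ILC2s. *Gimap9* had 25.6% there against 43.7%. Both shares were lower inside subcluster 5 than outside, although the authors' comparison placed the averages higher. The order of these genes is one of shares of cells with a value above 0, and levels between genes were not compared.

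**Figure D4:**
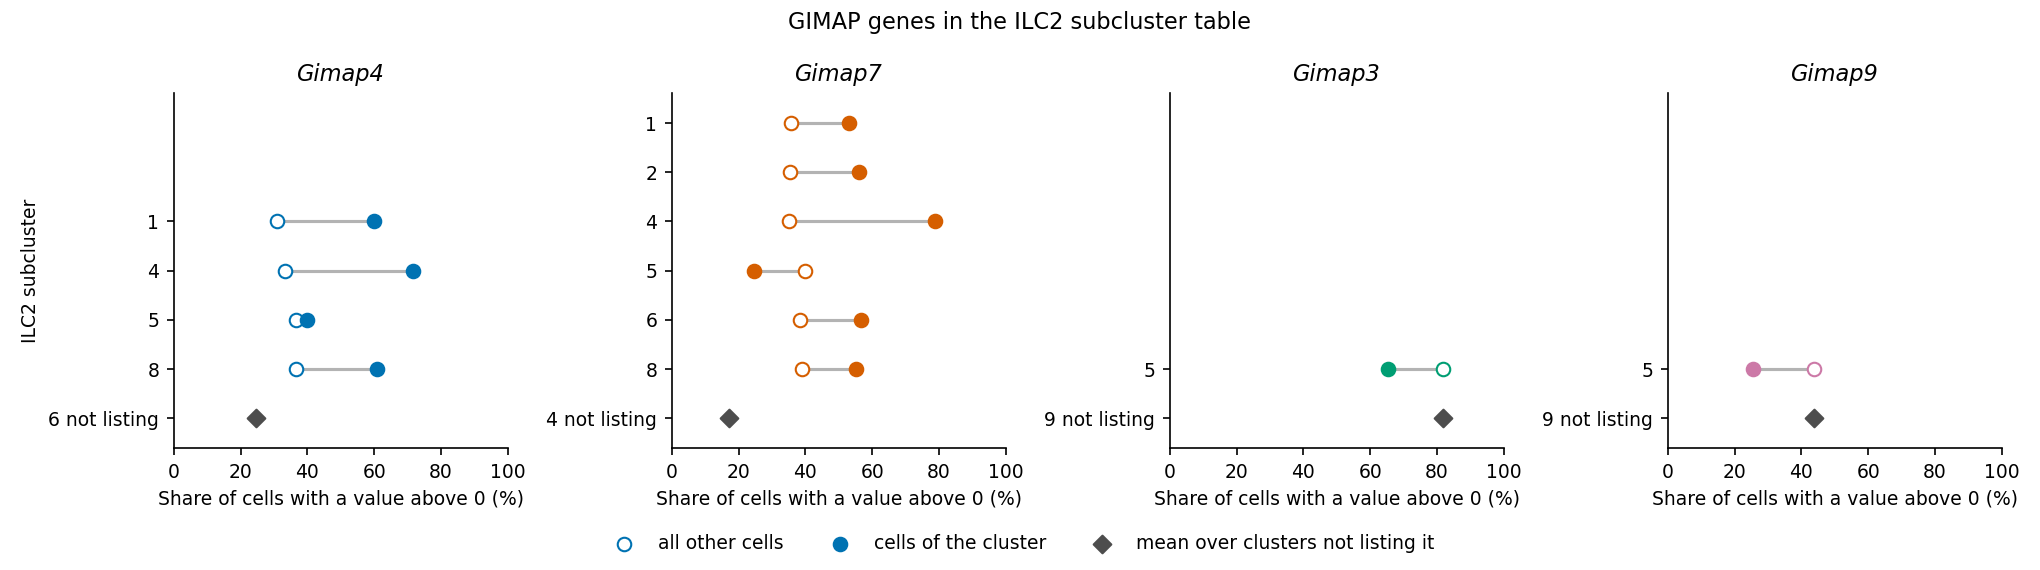
Share of ILC2s (x axis, %) with Gimap4, Gimap7, Gimap3 and Gimap9 in each subcluster that listed the gene (y axis, subcluster number). Filled circles are cells of the subcluster, open circles all other ILC2s, and the diamond the mean over subclusters that did not list the gene; there are no error bars because the tables pool the 4 libraries. Subcluster 4 is highest for Gimap4 and Gimap7, and in subcluster 5 the filled circle lies left of the open one for Gimap7, Gimap3 and Gimap9.

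Subcluster 5 stood apart in ways that bear on these listings. It listed 1000 genes, 38.0% of the 2629 in the table, and 978 of them had a lower share inside than outside, with a median difference of -21.3 percentage points. All 4 listed GIMAP genes were on that list. *Gimap4* was 1 of the 22 genes whose share was not lower, and its difference of 3.2 percentage points ranked 17 of 1000. *Gimap7*, *Gimap3* and *Gimap9* lay at -15.2, -16.4 and -18.1, each above the median. Of 15 T cell markers, 5 were listed for subcluster 5: *Cd3e* in 32.0% of its cells against 4.7% outside, *Cd28* in 26.8% against 4.7%, *Trdc* in 25.6% against 7.0%, *Cd3g* in 39.5% against 32.6%, and *Trbc1* in 45.0% against 81.0%. The part of T cells or of low shares in the GIMAP values of subcluster 5 was not tested. Subcluster 5 held 3.87% of the ILC2s, and without it *Gimap3* and *Gimap9* had no listing.

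The other subclusters that listed both genes also differed in breadth. Subcluster 4 listed 30.5% of the genes in the table, with a median difference of 34.1 percentage points, and 8 of 10 proliferation genes, such as *Stmn1* in 77.2% of its cells against 9.8%. There *Gimap7* lay above the median, at rank 75 of 802, and *Gimap4* at rank 202. Subcluster 1 listed 13.8%, and *Gimap4* was high on its list, at rank 28 of 363, with a difference of 28.8 percentage points against a median of 15.8. Subcluster 8 listed 9.62% and held only 0.668% of all ILC2s. *Gimap4* lay above its median of 18.9 percentage points and *Gimap7*, at 16.0, below it. Subclusters 2 and 6 listed 4.98% and 7.23%, with *Gimap7* alone of the family, and its differences of 20.7 and 18.1 stood beside medians of 16.1 and 16.4.

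Genes of lymphocyte rest and recirculation were often listed beside *Gimap4* in T cells. Of 17 such genes, CD8_Naive listed 12, gdT_Naive 11, CD4 10 and gdT_TypeI 8, with median differences of 14.6, 9.9, 0.85 and 12.8 percentage points. In CD4, 5 of the 10 had a lower share inside, as had 3 of the 6 listed for CD8_Effector and 2 of the 4 for Treg. Plasma cell, which listed no GIMAP gene, listed 6, all with a higher share inside, beside 12.2% of all genes in the table. *Klf2*, a transcription factor of resting lymphocytes, was listed for 7 of the 9 types that listed *Gimap4*, with 99.0% of gdT_TypeI cells against 83.7% outside. Among ILC2s, subcluster 1 listed 6 of the 17, all with a higher share inside. *S1pr1*, the receptor for exit from tissues, was in 50.5% of its cells against 9.9%, *Rasgrp2*, an activator of integrin adhesion, in 72.6% against 23.3%, and *Klf2* in 87.4% against 43.5%. Subcluster 7, with no GIMAP gene, followed with 4, all higher inside, beside 10.3% of all genes, and subclusters 2, 6 and 8, which listed *Gimap7*, listed 0 of the 17.

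Among ILC2s, 12 of the 23 listings of the 12 activation genes were for the 6 subclusters with a GIMAP gene, which hold 2739 of the 3745 listings of all genes (73.1%). No test of this was run. Subcluster 3, with no GIMAP gene, listed the most activation genes, 5 of 12, all higher inside, beside 9.01% of all genes in the table. For *Tnfrsf18* the difference was only 0.1 percentage points. Subcluster 7, also with none, listed 3. *Ctla4*, an inhibitory receptor of activated lymphocytes, was the gene of the list closest to *Gimap7*, listed for 5 of the 6 subclusters that listed *Gimap7* (1, 2, 4, 6 and 8), which are the 5 in which the share of *Gimap7* was above that of the other ILC2s. *Ctla4* was in 73.0% of subcluster 8 against 33.5% outside, and in 50.9% of subcluster 1 against 29.5%. With 5 of 6 subclusters shared, its index with *Gimap7* was 0.833, the highest reached, and 9 genes reached it. The nearest of the 9 in share difference were *H2-Q7*, a class I-like histocompatibility gene, *Impa2*, an inositol monophosphatase, and *Psmb9*, an immunoproteasome subunit. For *Gimap4*, 19 genes reached the highest index of 0.75, led by *Ms4a6b*, *Lgals3bp* and *Dusp2*.

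Listings of the other families fell mostly in subclusters that listed a GIMAP gene, 14 of 14 for interferon-inducible GTPases, 5 of 5 for the MS4A family, 3 of 3 for genes of ATG8 proteins and the autophagy receptor *Sqstm1* and 6 of 8 for the BCL2 family, many of them in subclusters 5 and 8. These counts stand beside the same 73.1% over all genes. Interferon-inducible GTPases, which like GIMAP proteins bind GTP at internal membranes, had 10 of 16 genes listed for subcluster 8, for example *Gbp4* in 71.9% of its cells against 27.9%. Of the other subclusters only 4 and 5 listed any, 2 each, higher inside in 4 and lower inside in 5. Of 14 BCL2 family genes, the regulators of cell death, 6 were listed in each table. The 3 listed for subcluster 5 were all lower inside, as were 978 of all 1000 genes listed there. *Bcl2l11*, which encodes the death inducer BIM, was listed for 5 of the 9 types that listed *Gimap4*, with 81.7% of gdT_TypeI cells against 65.8% but 57.5% of gdT_Naive against 68.3%. In ILC2 subcluster 5 it was in 14.2% against 29.9%. Of the 5 ATG8 genes, *Gabarapl1* was listed among cell types and *Map1lc3b* for subcluster 1. *Sqstm1*, whose product binds ATG8 proteins, was listed for 1 and 8. Of 8 MS4A genes, *Ms4a4b* was in 49.6% of subcluster 5 cells against 10.2% outside. Markers of other cells were also listed for subclusters with a GIMAP gene. Of 15 T cell markers, 8 had 13 listings there, and subcluster 6 listed 4, such as *Cd3g* in 46.1% of its cells against 32.4%. Of 10 NK cell and ILC1 markers, *Ccl5* and *Nkg7* were listed, *Ccl5* in 62.6% of subcluster 4 against 41.8%. Of 9 endothelial markers, *Pecam1* was listed for 1, 5 and 8, with a lower share inside 5 (8.6% against 28.0%), and *Stab2* for 0, 3 and 9, which listed no GIMAP gene. The B cell marker *Cd79b* was listed for 1, in 38.7% against 19.9%. The 8 myeloid and basophil markers had no listing in any ILC2 subcluster. Of the 33 listings of the 12 ILC2 markers, 13 were for subclusters with a GIMAP gene, and subcluster 3, with none, listed the most markers, 8. Among these, *Il2ra* and *Icos* are also on the list of activation genes, so the counts of subcluster 3 for these lists overlap. *Klrg1*, an inhibitory receptor, was listed for 1, 2, 6 and 8, each of which listed *Gimap7*. It was named by a rule that favours genes listed beside a GIMAP gene. *Gata3* and *Il1rl1*, of the same marker list, were listed for 0 and 3 alone.

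Because *Gimap4* and *Gimap7* were listed together, the bases upstream of both starts are shown (RefSeq, GRCm38.p6, plus strand). The windows reach from 250 bases before the RefSeq start to the first base that GENCODE M21 places in an exon, chr6:48684328-48684548 for *Gimap4* and chr6:48718371-48718606 for *Gimap7*. Capitals mark matches on either strand to a RUNX motif (TGTGGT):
*Gimap4*: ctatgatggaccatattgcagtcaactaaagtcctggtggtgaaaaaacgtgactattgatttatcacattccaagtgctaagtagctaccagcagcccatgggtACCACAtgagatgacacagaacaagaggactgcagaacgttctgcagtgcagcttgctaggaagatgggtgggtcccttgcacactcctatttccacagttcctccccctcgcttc
*Gimap7*: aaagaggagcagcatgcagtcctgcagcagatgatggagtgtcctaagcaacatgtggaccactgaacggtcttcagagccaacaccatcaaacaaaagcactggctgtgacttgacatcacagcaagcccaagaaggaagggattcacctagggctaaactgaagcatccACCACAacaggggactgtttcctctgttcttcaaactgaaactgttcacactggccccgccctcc

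The RUNX letters occurred once in each, beginning 145 bases before the RefSeq start of *Gimap4* and 79 bases before that of *Gimap7*. They were present in 14.0% of 32817 promoter windows of 250 bases. The windows of both genes held 0 matches to an ETS motif (GGAAGT, in 19.7% of windows), a GATA motif (AGATAA, 9.99%) or a T-box motif (GGTGTG, 16.3%). *Gimap3* had 1 T-box match and *Gimap9* had 0 matches to any of the 4. No binding was measured in these data.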

How the data were processed

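Sorted cells of 4 libraries (1 each of PBS liver, PBS lung, rIL-33 liver and rIL-33 lung, with tissues of several mice pooled per group in the study's methods) were sequenced from transcript 3' ends. The authors aligned reads with Cell Ranger to mm10, left out cells with few genes, scaled and log transformed the counts, clustered in Seurat and named cell types by hand from markers. Doublets were removed by sorting, and no doublet caller was run here. The deposited shares, used here, are the fraction of cells with a value above 0 inside a cluster and in all other cells. The deposited log2 fold changes (all above 0), p-values and adjusted p-values are the authors' own comparisons and were not used.

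A least squares fit gave the cluster sizes, from the 1045 and 768 genes with 2 or more listings in a table, with standard errors of at most 0.0400 percentage points, in Python 3.11.15 with numpy 2.4.6, scipy 1.17.1 and pandas 2.3.3. On simulated shares the solver was tested with known sizes. Sequence work used Biopython 1.88 with GENCODE M21 and RefSeq tables of the same build, in which all 8 genes were matched. Named genes were every GIMAP gene, at most 4 of each list, ordered by listings in clusters that list a GIMAP gene, any list gene needed for a count of 5 or fewer, and at most 3 most alike in listing. The members, the 13 gene lists and the rules were chosen with earlier results of these data known. Alternatives were other thresholds for a listing, other size fits and the treatment of subcluster 5, the last chosen after seeing the data.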

Additional observations from a re-analysis of the deposited data

How the results depend on the processing

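There were 40 alternative values of the share in all cells and of the mean in clusters without a listing. They came from other size fits or from medians over listings. All differed from those reported by less than the standard deviation over listings or the rounding, by at most 0.0665 percentage points. For *Gimap3* and *Gimap9*, with 1 listing each, that mean is the printed outside share, so no size fit could move it. The number of listings stayed within 1.5 times of that reported: 12, 11 and 9 among cell types and 9, 8 and 8 among subclusters for a share above that outside, at least 5 and at least 10 percentage points above, and 8 among subclusters without subcluster 5. With only listings whose share lay above that outside, the highest Jaccard index was 0.875 for *Gimap4* among cell types and 1.0 for *Gimap7* among subclusters. The leading genes also changed. *Gimap4* lost Treg, where *Ms4a4b* stayed (97.1% against 87.3%), and *Txk*, with 7 types shared, reached 0.875. *Gimap7* lost subcluster 5, as did *H2-Q7* (53.3% against 78.4%), which was not listed for subcluster 4. *Ctla4* shared all 5 subclusters left to *Gimap7*. With subcluster 5 counted as not listing, the mean share outside the listing subclusters was 25.4% for *Gimap4* and 17.8% for *Gimap7*; this and the count without subcluster 5 were chosen after seeing the data. The shifts in value follow from the construction of the settings, which drop listings or add a subcluster.

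No paired analysis was possible because the shares were pooled over all 4 libraries, and a group had a single library. Depth and cell numbers were not analysed here, so the counting error of small clusters such as subcluster 8 was not computed.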
